A study of Mus musculus with 6 samples.

Results

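The neuromuscular junction is the synapse through which a motor neuron drives a skeletal muscle fibre, and 10 genes of its muscle side were followed in Baf155-deficient muscle. They were chosen by name, for their known place in the junction and not for any measured value. Earlier results of these data were known when these genes were chosen. They are the 5 subunits of the muscle acetylcholine receptor (*Chrna1*, *Chrnb1*, *Chrnd*, *Chrne* and *Chrng*), the 4 genes of the machinery that gathers the receptor under the nerve terminal (*Musk*, *Lrp4*, *Dok7* and *Rapsn*) and *Ache*, which encodes acetylcholinesterase. All 10 are among the 20632 genes of the deposited table.

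The study sequenced RNA of whole hind limb muscle from 3 Baf155 WT and 3 Baf155 ΔMF mice, with 1 library per mouse. All 6 mice had a C57BL/6 background per the labels (C57BL/6J in the study's methods), were 3 months old and had not been exercised. In Baf155 ΔMF mice, labelled Baf155 -/-, both floxed alleles of *Baf155* are deleted by Cre under the muscle creatine kinase promoter (MCK-Cre; Baf155 f/f), which is active in skeletal myofibres and also in cardiac muscle. The control mice, labelled as wild type, carry the same floxed alleles (Baf155 f/f), so other cells of the muscle keep the gene in both genotypes. The hind limb muscles are described for the study as the tibialis anterior, extensor digitorum longus, gastrocnemius, soleus and quadriceps. Baf155, encoded by *Smarcc1*, is a core subunit of the SWI/SNF chromatin remodelling complex.

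At the junction, acetylcholine released by the nerve opens receptors that are packed into the muscle membrane opposite the terminal. Agrin from the nerve binds Lrp4, which activates the receptor tyrosine kinase MuSK with the help of the adaptor Dok7, and the scaffold rapsyn, the product of *Rapsn*, then holds the receptors in clusters. The few nuclei beneath the synapse transcribe most of these genes, whereas electrical activity keeps them low along the rest of the fibre. When a muscle loses its nerve that restraint is lifted, and subunits such as *Chrna1* and the foetal subunit *Chrng* are known to rise.

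Deletion was visible in every Baf155 ΔMF mouse. *Smarcc1* was at 23.4, 19.5 and 17.0 CPM (each count relative to the size of its library, corrected by TMM) in Baf155 WT mice and at 7.05, 6.54 and 7.72 CPM in Baf155 ΔMF mice. The genotypes did not overlap, and the log2 fold change was −1.49 (SE 0.15, edgeR adjusted p = 0.00907). It was one of 3 genes called at an adjusted p under 0.05 among the 12116 tested. The libraries held 8426022 to 12469335 counts, so that 3 counts, taken as the smallest level that can be seen, stood for 0.230 to 0.351 CPM. The 9 myofibre markers, among them *Acta1* and *Ckm*, were detected in every mouse and summed to between 126980 and 139310 CPM. The sample titles begin with MS13, MS14 or MS15, whose meaning the labels do not state. Only MS13 holds both genotypes (1 Baf155 WT mouse and 2 Baf155 ΔMF mice), and outside it prefix and genotype cannot be told apart. Below, the values of a gene are listed for the Baf155 WT mice MS13-3, MS15-2 and MS15-3 and then for the Baf155 ΔMF mice MS13-1, MS13-2 and MS14-2.

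Promoter sequence was examined for 7 of the 10 genes, in the 250 bases before each start site that RefSeq gives on GRCm38.p6. E-boxes (CANNTG), the sites that myogenic bHLH factors are known to bind, were found in 7 of the 8 windows of these genes, against 66.2% of all 32851 windows of that length. *Dok7* has 2 windows, and the one at its later start site held none. The letters CAGCTG, an E-box variant, occurred in 4 of the 8 windows (*Chrna1*, *Chrne*, *Chrng* and *Musk*), against 13.0% of all windows. The N-box (CCGGAA, searched on both strands), a site known from synaptic transcription, was present in 1 of the 8 windows, that of *Chrne*, against 12.0% of all windows. *Chrnd*, *Lrp4* and *Rapsn* had no window. Promoters of a subunit shared by both receptor forms (*Chrna1*), of the adult subunit (*Chrne*) and of the foetal subunit (*Chrng*) are shown 5′ to 3′, since the balance of adult and foetal receptor is followed below. Capitals mark E-boxes and the N-box, and the last base is the one before the start site.
Chrna1, chr2:73580339-73580588, minus strand: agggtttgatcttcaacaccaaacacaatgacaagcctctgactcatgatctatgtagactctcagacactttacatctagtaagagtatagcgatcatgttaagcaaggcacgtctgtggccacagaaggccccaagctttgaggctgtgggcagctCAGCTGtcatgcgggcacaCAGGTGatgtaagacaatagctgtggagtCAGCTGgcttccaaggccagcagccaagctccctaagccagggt
Chrne, chr11:70619195-70619444, minus strand: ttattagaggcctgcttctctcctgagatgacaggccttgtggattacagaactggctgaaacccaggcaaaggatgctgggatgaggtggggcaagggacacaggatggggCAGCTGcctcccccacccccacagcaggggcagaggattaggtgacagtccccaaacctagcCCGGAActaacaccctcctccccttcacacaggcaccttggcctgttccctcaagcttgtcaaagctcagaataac
Chrng, chr1:87205561-87205810, plus strand: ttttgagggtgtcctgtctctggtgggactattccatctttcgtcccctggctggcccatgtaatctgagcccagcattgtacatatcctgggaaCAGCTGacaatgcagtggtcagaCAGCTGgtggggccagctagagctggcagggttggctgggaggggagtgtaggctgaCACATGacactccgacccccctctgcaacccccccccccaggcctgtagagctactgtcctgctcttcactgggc
In *Chrna1* the capitals are E-boxes that begin 92, 73 and 44 bases before the start site. In *Chrne* an E-box begins 138 bases and the N-box 76 bases before it. In *Chrng* the E-boxes begin 155, 132 and 75 bases before it. These are matches of letters, and binding was not measured here.

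No subunit of the receptor differed between genotypes beyond the spread between mice. In whole muscle RNA, fewer synaptic nuclei and less RNA per nucleus cannot be told apart, here and for the genes that follow. *Chrna1* encodes the alpha subunit, which carries the acetylcholine-binding site, and lies on chromosome 2 (73563215-73580338, minus strand, GRCm38). It was at 12.6, 11.6 and 10.1 CPM in Baf155 WT mice and at 10.6, 12.7 and 12.7 CPM in Baf155 ΔMF mice. The ranges overlapped almost fully, and the log2 fold change was 0.07 (SE 0.14, 95% interval −0.23 to 0.37, edgeR adjusted p = 0.892). The deposited estimates of *Chrna1* were not whole numbers in any of the 6 mice, so some of its reads were shared out between genes.

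*Chrnb1*, the beta subunit on chromosome 11 (69784036-69795943, minus strand), was at 21.7, 18.9 and 25.6 CPM in Baf155 WT mice. The Baf155 ΔMF mice had 22.9, 20.7 and 22.6 CPM, all inside the Baf155 WT range. The means were 22.1 ± 3.37 and 22.0 ± 1.19 CPM (SD, n = 3), and the 95% interval of the log2 fold change ran from −0.28 to 0.28 (edgeR adjusted p = 1.00).

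*Chrne* encodes the epsilon subunit, which marks the adult receptor, and also lies on chromosome 11 (70614883-70619216, minus strand). Its levels were 12.1, 9.10 and 11.0 CPM in Baf155 WT mice and 8.44, 10.5 and 11.3 CPM in Baf155 ΔMF mice. The lowest value came from the Baf155 ΔMF mouse MS13-1 and the highest from the Baf155 WT mouse MS13-3, with the other mice of both genotypes mixed between them. The log2 fold change was −0.09 (SE 0.16, 95% interval −0.44 to 0.26, edgeR adjusted p = 0.886). The gene overlaps *4930544D05Rik* on the opposite strand over 1043 bases. Whether counting used the strand is not given in the sources used here, so reads from this overlap may belong to either gene.

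*Chrnd*, the delta subunit on chromosome 1 (87190607-87200070, plus strand), was the least abundant member that could be tested. It had 17, 11 and 5 counts in Baf155 WT mice and 13, 12 and 12 counts in Baf155 ΔMF mice, or 1.65, 0.842 and 0.446 CPM against 1.39, 1.25 and 1.40 CPM. All the Baf155 ΔMF values lay between those of the Baf155 WT mice MS15-2 and MS13-3. The spread was 62.7% of the mean in Baf155 WT mice and 6.45% in Baf155 ΔMF mice. With so few counts the log2 fold change of 0.48 had an SE of 0.43 and a 95% interval from −0.48 to 1.44 (edgeR adjusted p = 0.748), and the interval reached beyond 2-fold. The value moved with single Baf155 WT mice: it was 1.02 without MS13-3 (edgeR adjusted p = 0.157) and 0.14 without MS15-3 (edgeR adjusted p = 0.992).

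*Chrng* encodes the gamma subunit, which the epsilon subunit replaces after birth, and lies 4587 bases beyond *Chrnd* (chromosome 1, 87204657-87212694, plus strand). It had 1, 0 and 1 counts in Baf155 WT mice and 0 counts in each Baf155 ΔMF mouse, too few to test. The counts of 0 allow a level of up to 0.320, 0.312 and 0.351 CPM in the Baf155 ΔMF mice. *Chrng* made up 0.794% (exact Clopper-Pearson 95% interval 0.0201 to 4.34%), 0% and 0.806% (0.0204 to 4.41%) of the summed *Chrng* and *Chrne* counts in Baf155 WT mice. It made up 0% in all Baf155 ΔMF mice, where 3 counts would have been 3.80, 2.97 and 3.09%. Divided by exon length, the mean share in Baf155 WT mice was 0.218% in place of 0.533%. The limits cover counting error only. The 6 libraries thus showed the adult subunit with at most a single count of the foetal one, and a difference between genotypes in *Chrng* was not detectable at this depth.

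The plot of all members by mouse places these subunits beside the clustering genes and *Ache*.

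**Figure D1:**
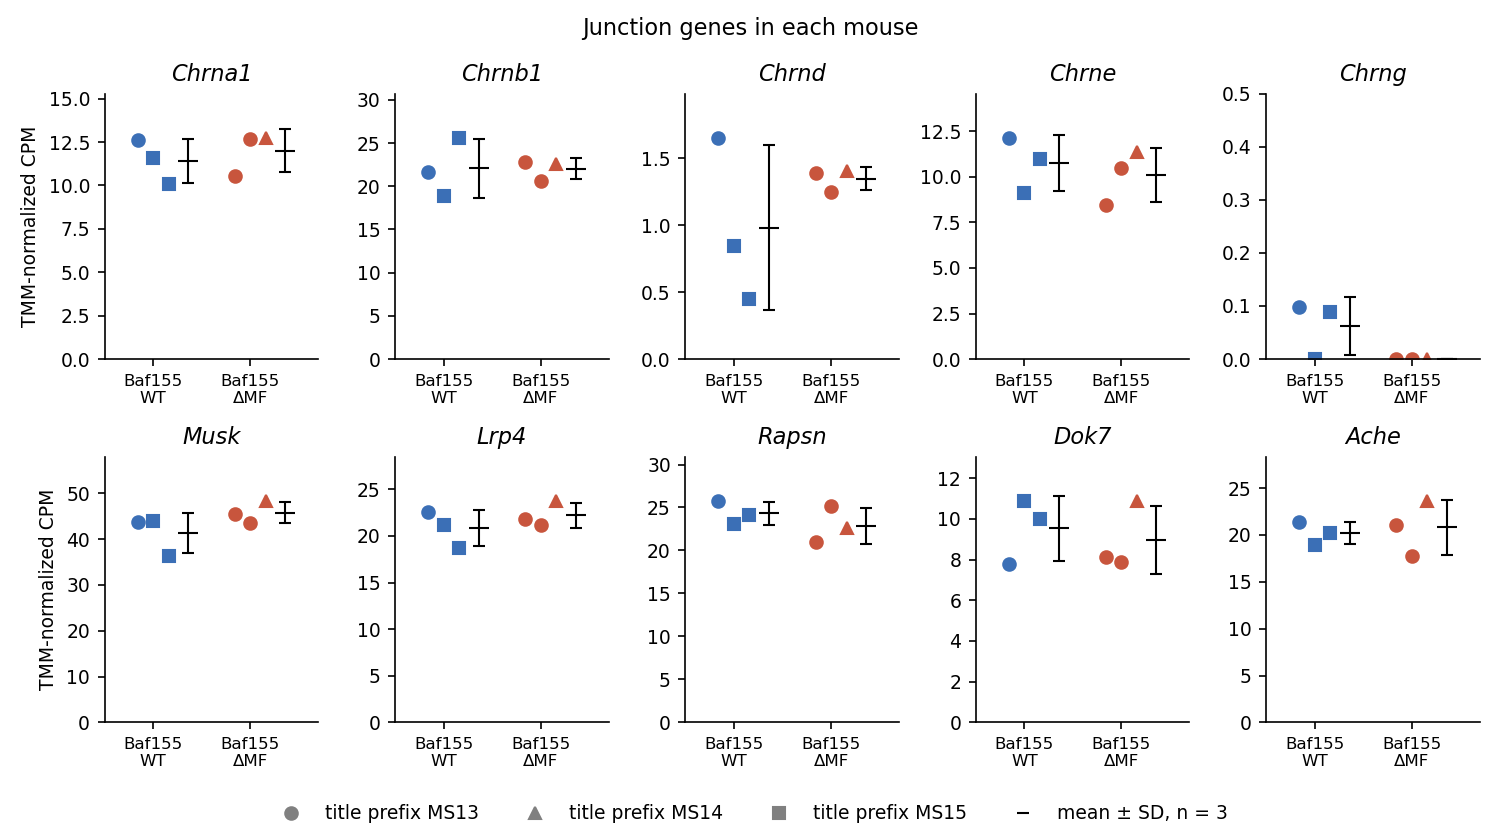
Level of each of the 10 junction genes in every mouse, in TMM-scaled CPM, with Baf155 WT and Baf155 ΔMF mice side by side, marker shapes for the title prefix and bars for the mean ± SD of each genotype. The genotypes overlap in every gene, and *Chrnd* has its widest spread among Baf155 WT mice.

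Subunit transcripts were set against each other per length, as CPM per kilobase of exon, and each was taken as a share of the 5 subunits together. *Chrnb1* made up 48.4 ± 4.27% of this sum in Baf155 WT mice and 49.0 ± 4.01% in Baf155 ΔMF mice (SD, n = 3). *Chrne* made up 35.3 ± 1.96% and 33.4 ± 3.28%, and *Chrna1* made up 14.6 ± 2.37% and 15.3 ± 1.04%. *Chrnd* contributed 1.65 ± 0.956% in Baf155 WT and 2.30 ± 0.184% in Baf155 ΔMF mice. For each of these shares the difference between genotypes was smaller than the larger SD. The assembled receptor holds more copies of the alpha subunit than of any other, whereas *Chrna1* had a smaller share than *Chrnb1* and *Chrne* in all 6 mice. Against *Chrne* this rests on the exon lengths used, 4386 bases for *Chrna1* and 1690 for *Chrne*. Without them the means were 11.4 and 10.7 CPM in Baf155 WT mice and 12.0 and 10.1 CPM in Baf155 ΔMF mice. The annotation used for counting is not known, so its lengths may differ.

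**Figure D2:**
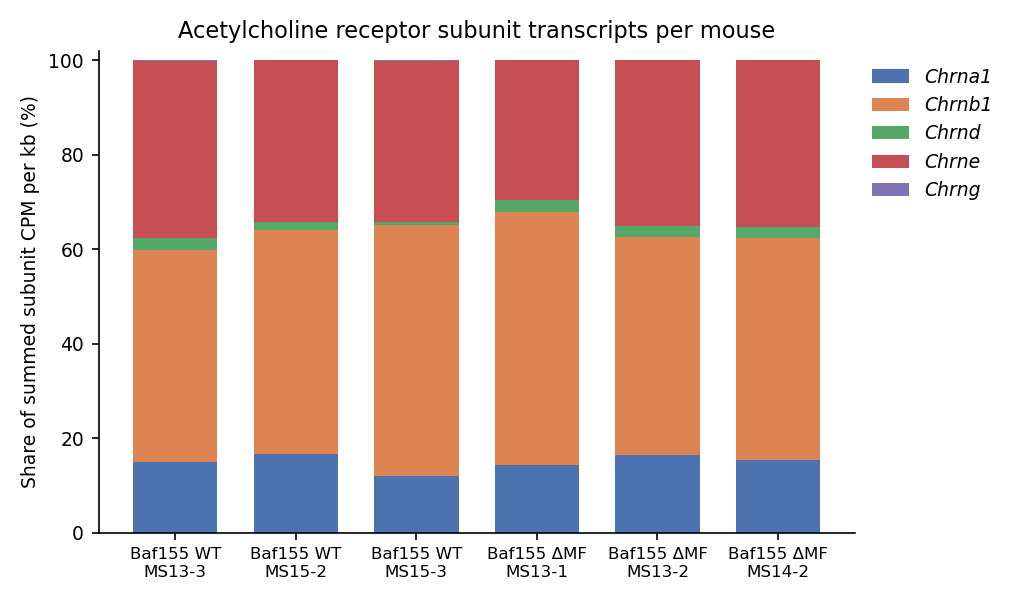
Share of each receptor subunit in the summed CPM per kilobase of exon of the 5 subunits, in percent, one bar per mouse. *Chrnb1* and *Chrne* make up most of the sum in all 6 mice, and *Chrng* is barely visible.

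Nor did any gene that builds and holds the receptor cluster differ beyond the spread between mice. *Musk*, the kinase at the head of the pathway (chromosome 4, 58285960-58374303, plus strand), was at 43.6, 44.0 and 36.4 CPM in Baf155 WT mice. The Baf155 ΔMF mice had 45.5, 43.6 and 48.3 CPM. The values of 2 Baf155 ΔMF mice lay above all Baf155 WT values, while MS13-2 lay below 2 of them. *Musk* had the lowest p of the members, with a log2 fold change of 0.15 (SE 0.10, 95% interval −0.08 to 0.37, unadjusted p = 0.179, edgeR adjusted p = 0.690). Within MS13 the difference shrank to 0.03.

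*Lrp4*, the agrin receptor (chromosome 2, 91457511-91513779, plus strand), was at 22.5, 21.2 and 18.7 CPM in Baf155 WT mice and at 21.8, 21.2 and 23.7 CPM in Baf155 ΔMF mice. The lowest value was that of the Baf155 WT mouse MS15-3 and the highest that of the Baf155 ΔMF mouse MS14-2, with the genotypes alternating between them. The log2 fold change was 0.09 (SE 0.11, 95% interval −0.15 to 0.34, edgeR adjusted p = 0.817).

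*Dok7*, which encodes the adaptor of MuSK (chromosome 5, 35056766-35087839, plus strand), was at 7.77, 10.9 and 9.99 CPM in Baf155 WT mice. In Baf155 ΔMF mice it was at 8.11, 7.89 and 10.9 CPM. The 3 MS13 mice of both genotypes were the lowest 3 of the 6. The log2 fold change was −0.10 (SE 0.18, 95% interval −0.49 to 0.28, edgeR adjusted p = 0.874) over all mice and 0.04 within MS13.

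*Rapsn*, the scaffold (chromosome 2, 91035620-91045729, plus strand), was at 25.7, 23.0 and 24.2 CPM in Baf155 WT mice and at 20.9, 25.1 and 22.6 CPM in Baf155 ΔMF mice. The Baf155 ΔMF mouse MS13-2 lay above 2 of the Baf155 WT mice, and the other 2 Baf155 ΔMF mice lay below them all. The log2 fold change was −0.09 (SE 0.11, 95% interval −0.33 to 0.15, edgeR adjusted p = 0.826). *Rapsn* overlaps the transcript *Gm13778* on the opposite strand over 1638 bases.

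*Ache* encodes the enzyme that breaks down acetylcholine in the synaptic cleft (chromosome 5, 137287519-137294466, plus strand). Its levels were 21.4, 19.0 and 20.3 CPM in Baf155 WT mice and 21.0, 17.8 and 23.6 CPM in Baf155 ΔMF mice. The lowest and the highest of the 6 values both came from Baf155 ΔMF mice. The log2 fold change was 0.04 (SE 0.12, 95% interval −0.23 to 0.31, edgeR adjusted p = 0.930). It overlaps the noncoding RNA *Gm42456* on the opposite strand over 1144 bases and holds *Mir8116* within 97 bases on its own strand.

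Of the 9 members tested, 0 were called at an adjusted p under 0.05 by edgeR, beside 0.0248% of all genes tested. DESeq2 and limma with voom also called 0. At an unadjusted p under 0.05 edgeR counted 0 of the 9, beside 7.95% of all genes tested. No member had genotypes without overlap, beside 10.8% of all genes tested. The log2 fold changes were above 0 in 5 members and below 0 in 4, with a median of 0.04 against −0.00095 over all genes tested. The median absolute log2 fold change was 0.09 in the members and 0.12 over all genes tested.

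How far the data bound a difference can be read from the intervals. In 8 of the 9 members the 95% interval lay within 1.5-fold in either direction, as it did for 8382 of 12115 genes with an interval, and *Chrnd* was the exception. The median SE of the log2 fold change was 0.13 in the members and 0.13 over all genes tested. The members summed to 169, 158 and 157 CPM in Baf155 WT mice and to 161, 161 and 177 CPM in Baf155 ΔMF mice. An exact permutation test of 3 mice against 3 cannot give a p below 0.10, so single genes were read from the fit over all genes.

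**Figure D3:**
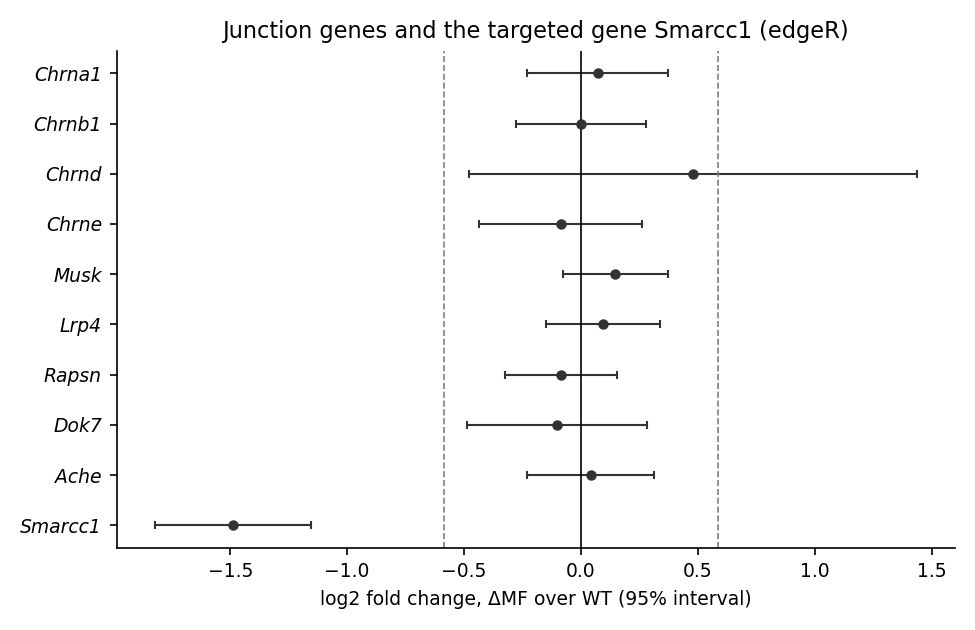
Log2 fold change (Baf155 ΔMF over Baf155 WT) of the 9 tested junction genes and of the targeted gene *Smarcc1* with 95% intervals from edgeR, and dashed lines at 1.5-fold. All 9 intervals of the junction genes include 0, and among these only that of *Chrnd* reaches beyond the dashed lines. The interval of *Smarcc1* (−1.82 to −1.16) excludes 0 and lies beyond the dashed line.

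Within MS13, where both genotypes share a prefix, the log2 fold change was −0.12 for *Chrna1*, 0.01 for *Chrnb1*, −0.33 for *Chrnd* and −0.36 for *Chrne*. It was −0.07 for *Lrp4*, −0.16 for *Rapsn* and −0.14 for *Ache*. These values rest on 1 Baf155 WT mouse and have no test. The Baf155 WT mouse MS13-3 was above both MS15 mice in 6 of the 9 tested members, and the sign differed from that over all mice for *Chrna1*, *Chrnb1*, *Chrnd*, *Lrp4*, *Dok7* and *Ache*.

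**Figure D4:**
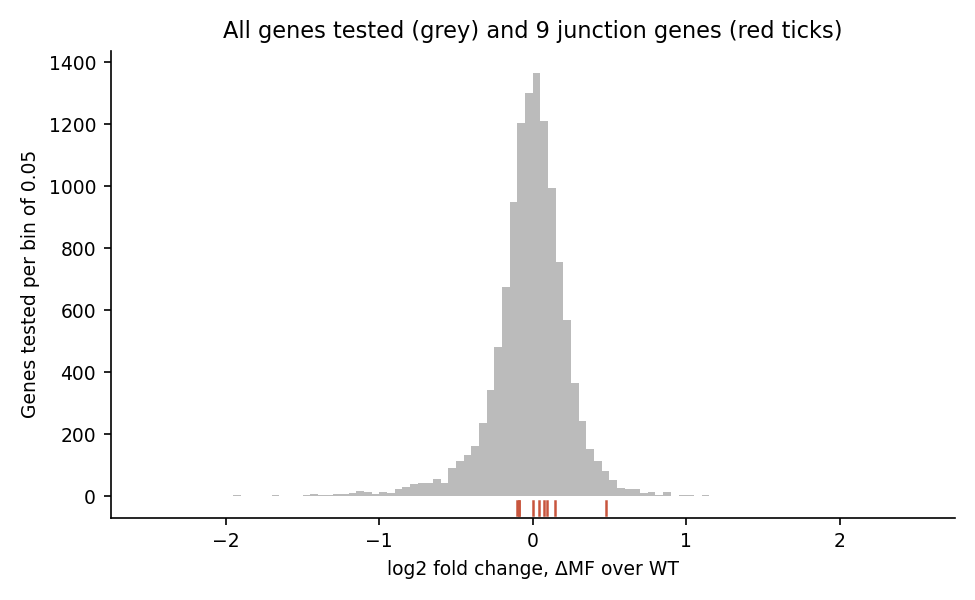
Distribution of the log2 fold change (Baf155 ΔMF over Baf155 WT) of the 12116 genes tested, in bins of 0.05, with the 9 tested junction genes marked; 1 gene lies outside the plotted range. Most junction genes lie near the centre of the distribution.

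The order of the members by level per kilobase of exon differed little between genotypes. *Rapsn* was highest in Baf155 WT mice at 13.5 ± 0.757 CPM per kilobase (SD, n = 3), followed by *Musk* at 10.9 ± 1.13, *Chrnb1* at 8.72 ± 1.33, *Chrne* at 6.36 ± 0.908 and *Ache* at 4.37 ± 0.260. The lower part of the order was *Chrna1* at 2.60 ± 0.291, *Dok7* at 2.23 ± 0.373, *Lrp4* at 1.98 ± 0.184 and *Chrnd* at 0.298 ± 0.187 CPM per kilobase. Among neighbours in this order the Baf155 WT values overlapped for *Musk* and *Chrnb1*, for *Chrna1* and *Dok7*, and for *Dok7* and *Lrp4*. In Baf155 ΔMF mice *Lrp4* (2.12 ± 0.127) stood just above *Dok7*, and the other places were unchanged. With the longest transcript in place of all exons as the length, 7 of the 10 genes kept their place, and *Chrna1*, *Dok7* and *Lrp4* did not.

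Of 29 other genes known for the junction, 28 could be tested and 0 were called by edgeR. This list covers agrin (*Agrn*), the collagen tail that anchors acetylcholinesterase (*Colq*), utrophin and syntrophins, laminins, the neuregulin receptors, the ETS factors of synaptic transcription and the glycosylation enzymes whose loss causes congenital myasthenia. The neuregulin gene *Nrg1* had 1 count in all mice together. An unadjusted p under 0.05 was reached by 3 of the 28, beside 7.95% of all genes tested, and 4 had genotypes without overlap, beside 10.8%. The median log2 fold change was 0.12, and 18 of the 28 intervals lay within 1.5-fold.

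The lowest p-values on this list belonged to *Pak1*, *Erbb4* and *Nes*. *Erbb4*, a neuregulin receptor, was at 0.874, 0.459 and 0.714 CPM in Baf155 WT mice and at 1.60, 1.25 and 1.29 CPM in Baf155 ΔMF mice. The genotypes did not overlap, at a log2 fold change of 1.03 (SE 0.38, edgeR adjusted p = 0.601) that rests on 61 counts in all. *Pak1*, a kinase linked to receptor clustering, was at 29.1, 34.3 and 40.0 CPM in the control mice and at 27.5, 25.2 and 26.7 CPM in the Baf155 ΔMF mice (log2 fold change −0.38, edgeR adjusted p = 0.601). *Nes*, the intermediate filament nestin that gathers beneath the synapse, was at 56.3, 34.3 and 42.6 CPM in Baf155 WT mice and at 57.0, 56.6 and 58.1 CPM in Baf155 ΔMF mice. Its MS13 mice hardly differed (log2 fold change 0.01), whereas the value over all mice was 0.37 (edgeR adjusted p = 0.601). Within MS13 *Erbb4* was at 0.70 and *Pak1* at −0.14.

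**Figure D5:**
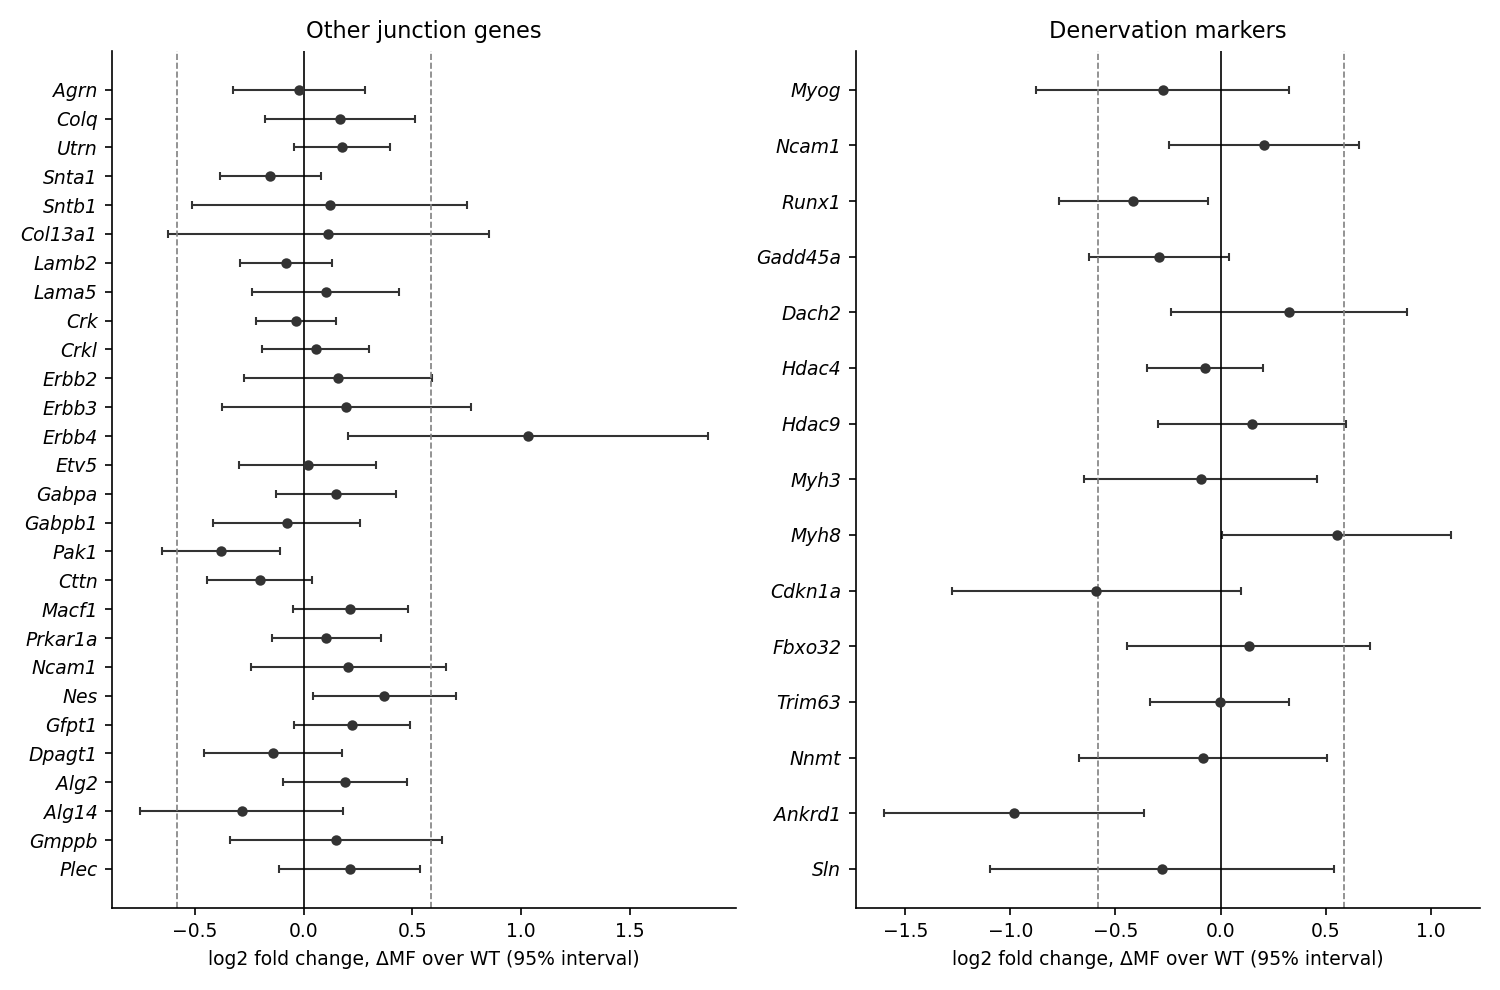
Log2 fold change (Baf155 ΔMF over Baf155 WT) of the other junction genes and the denervation markers with 95% intervals from edgeR, and dashed lines at 1.5-fold. The other junction genes lie between −0.38 and 1.03 and the denervation markers between −0.98 and 0.55.

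Genes known to move when a muscle loses its nerve formed a further list, which shares *Ncam1* with the list of other junction genes. *Dach2* and *Hdac9* are known to fall and the others to rise, so the median below mixes both directions. Of 16 such genes 15 could be tested and 0 were called by edgeR, with a median log2 fold change of −0.08. An unadjusted p under 0.05 was reached by 3 of the 15, beside 7.95% of all genes tested. These 3 also had genotypes without overlap, beside 10.8% of all genes tested. *Ankrd1*, a titin-associated protein of the sarcomere that rises on denervation, was at 8.45, 20.9 and 12.4 CPM in Baf155 WT mice and at 6.62, 7.48 and 7.25 CPM in Baf155 ΔMF mice (log2 fold change −0.98, SE 0.28, edgeR adjusted p = 0.601). Its highest values came from both MS15 mice, and the MS13 difference was −0.26. *Runx1*, a transcription factor induced by denervation, was at 6.90, 7.27 and 6.34 CPM in the control mice and at 4.80, 4.88 and 5.73 CPM in the Baf155 ΔMF mice (log2 fold change −0.42, edgeR adjusted p = 0.601, −0.51 within MS13). *Myh8*, the perinatal myosin heavy chain, was at 1.65, 1.68 and 2.23 CPM in the control mice and at 2.46, 2.80 and 2.92 CPM in the Baf155 ΔMF mice (log2 fold change 0.55, edgeR adjusted p = 0.621, 0.67 within MS13). The deposited estimates of *Myh8* were not whole numbers in any of the 6 mice, so some of its reads were shared out between genes. The part of such reads in this difference was not tested. Myogenin (*Myog*), which drives receptor genes after denervation, was at 4.96, 4.51 and 7.14 CPM in Baf155 WT mice and at 2.88, 4.67 and 6.20 CPM in Baf155 ΔMF mice, overlapping widely (edgeR adjusted p = 0.776). *Myog* was named after its values were seen.

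The counts on both lists moved with the mice included, as did those over all genes tested. Among the other junction genes, those with an unadjusted p under 0.05 were 1 without MS15-2, MS15-3 or MS13-1, 2 without MS13-2 or with DESeq2, and 13 without MS13-3. Among the denervation markers they were 1 without MS13-2 or with DESeq2, and 6 without MS13-3. Over all genes tested the same count was 963 of 12116 with all mice in edgeR. It was 451 of 12222 without MS15-2, 450 of 12211 without MS15-3 and 476 of 12348 without MS13-1. It was 568 of 12350 without MS13-2, 605 of 12116 with DESeq2 and 2923 of 12288 without MS13-3. Calls at an adjusted p under 0.05 appeared on these lists in 1 comparison. Without the Baf155 WT mouse MS13-3, 955 of 12288 genes were called (7.77%), and on these lists *Macf1*, *Nes*, *Plec* and *Dach2* were then higher and *Pak1* and *Ankrd1* lower in Baf155 ΔMF mice. *Macf1*, *Plec* and *Dach2* were named for these calls. The members still had 0 calls in that comparison, and *Chrnd* was the 1 of 9 with an unadjusted p under 0.05, beside 23.8% of the genes tested in it. Leaving it out removes the only Baf155 WT mouse that shares a prefix with Baf155 ΔMF mice, so that prefix and genotype cannot be told apart among the 5 that remain.

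The muscle libraries held RNA of the cells around the junction in different amounts. Markers of Schwann cells, which cover the nerve terminal, summed to 80.5, 68.2 and 79.1 CPM in Baf155 WT mice and to 69.5, 79.8 and 67.4 CPM in Baf155 ΔMF mice. None of the 7 Schwann cell markers tested of 8 listed had an unadjusted p under 0.05. *Pmp22*, the largest part of this sum, was the 1 marker of 7 without overlap between genotypes, beside 10.8% of all genes tested. It was at 37.4, 38.1 and 42.3 CPM in Baf155 WT mice and at 29.15, 34.5 and 36.7 CPM in Baf155 ΔMF mice (log2 fold change −0.23, edgeR adjusted p = 0.622). The other 6 had a log2 fold change above 0. The 7 axon markers summed to at most 0.612 CPM in any mouse, and *Nefl*, *Chat* and *Slc18a3* were at 0 in all 6. The 5 leukocyte markers summed to 41.5, 120 and 96.8 CPM in Baf155 WT mice and to 39.7, 39.5 and 61.0 CPM in Baf155 ΔMF mice, so that MS13-3 stood with the Baf155 ΔMF mice. All 5 had an unadjusted p under 0.05 with a log2 fold change below 0, beside 7.95% of all genes tested in either direction, and edgeR called 0 of them. The part of these cells in the levels of the junction genes was not tested.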

How the data were processed

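RNA-seq of 3 Baf155 WT mice was compared with that of 3 Baf155 ΔMF mice, with genotypes taken from the labels. The authors deposited expected counts (estimated reads per gene, not normalised) in a table of 20632 genes. The submitters' processing notes name CASAVA 1.8.2, cutadapt 1.10, Bowtie2 2.2.7, TopHat2 2.1.1, RSEM 1.2.30, limma and the builds mm10 and GRCm38. The annotation is not given in the sources used here. These estimates were rounded to whole numbers, and edgeR 4.0.16 was run on them under R 4.3.3. Genes passed filterByExpr (minimum count 10, minimum total 15), which left 12116, and libraries were scaled by TMM (factors 0.958 to 1.05). The quasi-likelihood test was used without covariates, with Benjamini-Hochberg adjustment over all genes tested. Its script was tested on simulated data. Error values are SD over mice. The p-values set a difference against the spread between 3 mice per genotype, and that spread is estimated in part from all genes tested.

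The members and gene lists were chosen with earlier results of these data known. Named were all members, *Smarcc1*, the 3 lowest p-values of each further list and any called gene, markers at 0 in all mice, and the 5 genes most like the receptor subunits. Each comparison was repeated with DESeq2 1.42.0, with voom and limma (version 3.58.1), under other scalings, filters and thresholds, in a robust fit, with the title prefix in the model, and without each mouse. Gene positions and lengths come from GENCODE M21 (GRCm38), and promoters from RefSeq (GRCm38.p6), where 7 members matched. For the likeness measure, 0.5 CPM was added before log2.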

Additional observations from a re-analysis of the deposited data

How the results depend on the processing

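The members had 0 calls in all 15 alternative fits, and *Musk* stayed above 0 and *Rapsn* below 0 throughout. The number of genes called among all tested was 3, against 17 without the low-count filter, 22 with DESeq2, 5 with limma-voom, 16 with the title prefix as a covariate, 8 at an adjusted p under 0.1, and 0 to 955 when each mouse was left out. Leaving out a mouse gave 0 to 1 members at an unadjusted p under 0.05, 0 to 4 calls among the other junction genes and 0 to 2 among the denervation markers; the highest count in each case came without MS13-3. It was 0 over all genes without MS15-2 or MS13-2. The cause was not tested. *Chrnb1*, at −0.00019, became 0.0015 with RLE scaling, 0.00053 without the filter, 0.0011 with DESeq2, 0.012 with limma-voom and 0.0054 with the prefix. *Ache* became −0.018 with library size only, which moved the median of all genes to −0.064. With the prefix as a covariate the log2 fold change was −0.12 for *Chrna1*, −0.33 for *Chrnd*, −0.070 for *Lrp4*, 0.042 for *Dok7* and −0.14 for *Ache*. When each mouse was left out it ran from −0.010 to 0.16 for *Chrna1*, from −0.10 to 0.12 for *Chrnb1*, from 0.14 to 1.02 for *Chrnd*, from −0.19 to 0.028 for *Chrne*, from −0.26 to 0.0080 for *Dok7* and from −0.054 to 0.15 for *Ache*. The order per kilobase kept 7 of 10 places with the longest transcript. No paired analysis was possible because the genotypes share no full replicate label. The fit with the prefix as a covariate, given above, is the block that the titles allow. MS14 and MS15 each hold 1 genotype, so the genotype differences of that fit come from MS13 alone (1 Baf155 WT and 2 Baf155 ΔMF mice). Its log2 fold changes are therefore close to those within MS13, and its calls rest on 1 Baf155 WT mouse. *Chrnd* had no value with at least 10 counts required in every mouse, and depth limits *Chrnd* and *Chrng* most.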

Other observations

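The genes whose pattern over the 6 mice was most like the mean of the centred log2 CPM of *Chrna1*, *Chrnb1*, *Chrnd* and *Chrne* were *Nrp2*, *Nup50*, *Trak2*, *Mbd3* and *Mtcp1*. Their Pearson r was 0.990, 0.988, 0.986, 0.984 and 0.982 over 6 mice, chosen as the highest of all genes tested, and the points share their libraries and scaling. The receptor mean itself was 0.18, −0.16 and −0.17 in Baf155 WT mice and −0.03, 0.04 and 0.13 in Baf155 ΔMF mice on the log2 scale, so both the highest and the lowest values were those of Baf155 WT mice. The subunits had equal weight in this mean. *Chrnd*, at 5 to 17 counts per mouse, had the widest spread of them in Baf155 WT mice (62.7% of its mean). How far *Chrnd* alone set this mean and the likeness to it was not tested.

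Markers of other cells in the muscle were also summed. The 4 endothelial markers summed to 249, 192 and 200 CPM in Baf155 WT mice and to 255, 273 and 251 CPM in Baf155 ΔMF mice. The 5 markers of muscle stem cells summed to 63.0, 73.1 and 83.0 CPM against 59.8, 55.7 and 62.8 CPM. Most of this sum was *Sdc4*, with 53.3, 62.4 and 70.9 CPM against 48.0, 42.5 and 50.8 CPM. *Pax7*, *Myf5*, *Vcam1* and *Calcr* overlapped between genotypes. Their log2 fold changes were −0.07 for *Pax7*, −0.06 for *Myf5* and 0.30 for *Vcam1*, and *Calcr* was not tested. The lower sum thus came mostly from *Sdc4*, whose genotypes did not overlap, beside 10.8% of all genes tested (log2 fold change −0.40, edgeR adjusted p = 0.601). The paper counted similar numbers of Pax7-positive cells in both genotypes on sections of the tibialis anterior. That is a different measure, taken in a single muscle. The 4 fibroblast markers summed to 1114, 1527 and 1429 CPM against 1038, 996 and 1366 CPM, and the 4 adipocyte markers to 32.3, 65.6 and 59.3 CPM against 35.3, 28.2 and 42.1 CPM. In the fibroblast, adipocyte and leukocyte sums the Baf155 WT mouse MS13-3 was the lowest of its genotype and lay inside the range of the Baf155 ΔMF mice. No marker of these cells was called by edgeR.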
